A study of Homo sapiens with 8 samples.

Results

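The mitotic entry and exit regulators were 10 named genes of the 18892 in a table of polyA RNA: CDK1, CCNB1, CCNB2, CCNA2, PLK1, AURKA, CDC20, CDC25B, CDC25C and FOXM1. They were taken by symbol as mitotic kinases, cyclins, CDC25 phosphatases, an activator of the anaphase-promoting complex and a transcription factor, with earlier results of these data known. All 10 were found in the table and all 10 passed the filter on low values, at least 1 RPM (reads divided by a library total and scaled) in at least 2 of 4 libraries. The cells were C4-2, a human prostate cancer line that descends from LNCaP. A pair of libraries came from cells with a short hairpin RNA (shRNA) against CDCA8 (shCDCA8) and a pair from cells with a control hairpin (shCTRL), and the labels give no treatment and no time after the hairpins were introduced. CDCA8 encodes borealin, which belongs to the chromosomal passenger complex of dividing cells. The labels name no other hairpin against CDCA8 and no rescue, so an effect outside CDCA8 cannot be told apart from its loss, and they do not say whether the 2 libraries of a group came from separate cultures. The series also holds 4 small RNA libraries, not used here.

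Cyclin-dependent kinase 1 (CDK1) bound to cyclin B drives a cell into mitosis. Before entry the kinases WEE1 and PKMYT1 hold CDK1 inactive by phosphorylation, and CDC25 phosphatases remove those phosphates. PLK1 and Aurora A promote this switch. At exit, the anaphase-promoting complex (APC/C), a ubiquitin ligase, marks cyclins and other proteins for destruction, first with CDC20 and later with FZR1 (CDH1) as co-activator. Transcripts of many of these genes peak in G2 and M phase under the MuvB complex, MYBL2 (B-MYB) and FOXM1, and are held low in quiescent cells by the DREAM complex. Proliferating tumour cells, those of the prostate included, express them.

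The promoters of late cell cycle genes are known for a cell cycle genes homology region (CHR), the element that MuvB complexes bind, and for CCAAT boxes, bound by NF-Y. RefSeq windows of 300 bases, 250 before to 50 after an annotated transcript start (GRCh38.p14), were matched by symbol for 8 of the 10 genes, all but AURKA and FOXM1. They were searched on both strands for TTTGAA or TTTAAA as the CHR and for CCAAT. CDC25B and CDC25C have 4 annotated starts each, CDK1 has 2 and the others 1. Starts are numbered by genome position, so start 1 of CDC25C, on the minus strand, is its most downstream. Other forms of the CHR were not searched. The 110 bases before the start are shown for 5 genes whose spacing of these letters can be compared. They are also shown for CCNA2, which held neither TTTGAA nor TTTAAA. CHR and CCAAT letters (or their reverse complement) are in capitals, and bases are read 5′ to 3′ on the gene's strand.
CCNB1, chr5:69167040-69167149, plus strand: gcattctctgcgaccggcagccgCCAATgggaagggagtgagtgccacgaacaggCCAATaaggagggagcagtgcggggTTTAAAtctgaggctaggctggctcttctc
CCNB2, chr15:59105036-59105145, plus strand: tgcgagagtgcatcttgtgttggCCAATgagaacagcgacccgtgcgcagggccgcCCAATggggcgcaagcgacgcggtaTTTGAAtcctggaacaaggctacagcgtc
PLK1, chr16:23678779-23678888, plus strand: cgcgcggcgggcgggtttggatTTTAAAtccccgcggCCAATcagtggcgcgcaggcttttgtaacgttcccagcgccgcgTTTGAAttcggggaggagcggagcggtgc
CDC20, chr1:43358871-43358980, plus strand: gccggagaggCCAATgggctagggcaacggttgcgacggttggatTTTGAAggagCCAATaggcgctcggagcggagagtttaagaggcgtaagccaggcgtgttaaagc
CCNA2, chr4:121823884-121823993, minus strand: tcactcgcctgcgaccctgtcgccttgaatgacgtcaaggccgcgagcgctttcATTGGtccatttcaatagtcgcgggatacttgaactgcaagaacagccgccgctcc
CDK1 (start 2), chr10:60778368-60778477, plus strand: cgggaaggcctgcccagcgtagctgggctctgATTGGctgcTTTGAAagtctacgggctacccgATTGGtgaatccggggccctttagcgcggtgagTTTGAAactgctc

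CHR letters began 30 bases before the start in CCNB1, 29 in CCNB2, 29 in PLK1 and 30 at start 1 of CDC25C. The CDC25C letters are the same site as those 43 bases after start 2, and starts 3 and 4 held none. Further CHR letters began 193 bases before the start in CCNB2, 148 and 88 in PLK1 and 178 and 65 in CDC20. In CDK1 they began 161 and 131 bases before start 1, and 69 and 13 before and 9 after start 2. In CCNB1 and in CCNB2 the CHR began 25 bases after the first base of the last CCAAT box before it. From the last CCAAT box of a window to the next CHR, other genes differed. The distance was 44 bases in PLK1, 55 in CDC25C, 19 at CDK1 start 1 and 33 at CDK1 start 2. In CDC20 no CHR followed the last CCAAT box. The CCAAT boxes of CCNB1 began 32 bases apart, and those at the second CDK1 start 32 bases apart. The last 3 of CCNB2, the first of them before the printed bases, began 33 and 33 bases apart. Other neighbouring boxes began 124 bases apart in CCNB2, 45 in CDC20, and 17 and 188 at start 2 of CDC25C. CCNA2 was the only one of the 8 with neither TTTGAA nor TTTAAA in its window, which does not show that it lacks a CHR of another form. In all, 7 of 8 genes held CHR letters in at least 1 window, against 27.9% of 27305 genes, and 24.0% of the 35116 windows held them. CDC25B was counted through start 4 alone, where the letters began 32 bases after the start. Genes with more annotated starts have more windows to match, and the shares of genes were not adjusted for this. A CCAAT box was found in 8 of 8 genes, against 39.7% of genes and 34.6% of windows. Both stood in the same window of 6 of 8 genes, against 11.2% of genes and 9.27% of windows. E2F letters (TTTCCCGC, TTTCGCGC, TTTGCCGC or TTTGGCGC) were found in CDK1 alone, against 3.31% of all windows and 3.99% of genes. The CDK1 windows overlap, and the match in both is the same site. The forkhead letters GTAAACA were also found in CDK1 alone, against 3.42% of windows. No match of one motif overlapped a match of another in these windows. Matches are descriptions of letters in these windows, and no binding was measured.

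**Figure D1:**
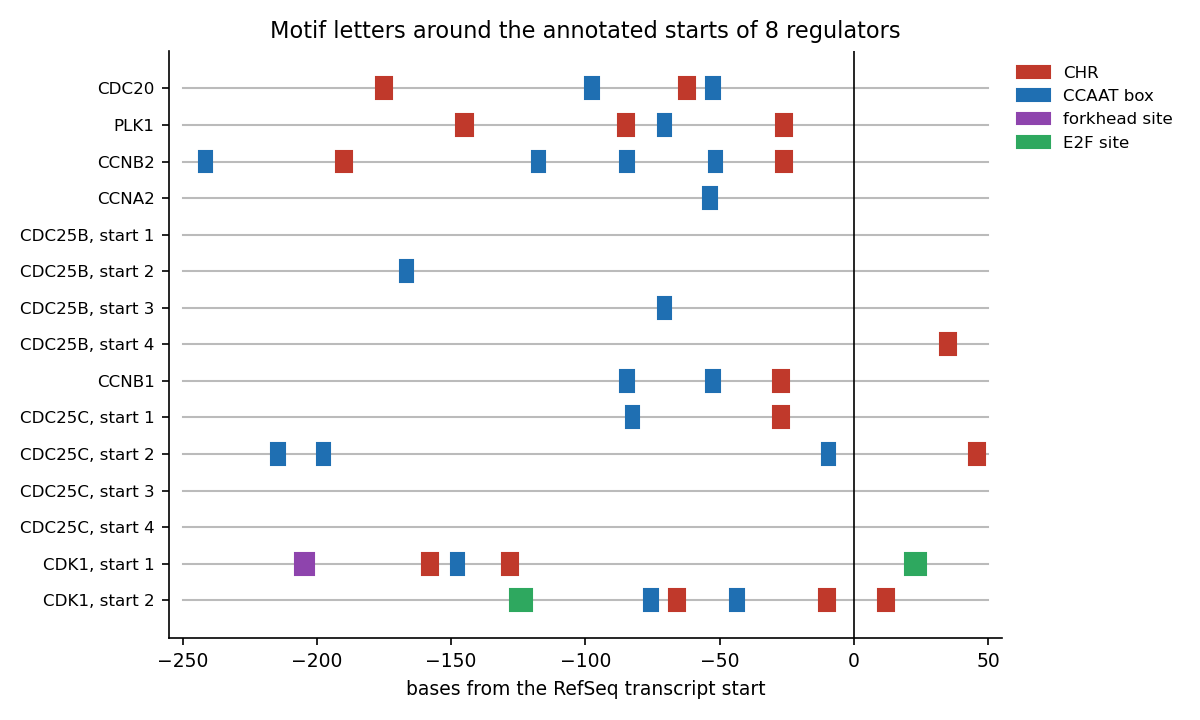
Positions of CHR, CCAAT, forkhead and E2F letters in each RefSeq window of 8 regulators, in bases from the annotated transcript start (the vertical line). Each row is 1 start. CCNB1, CCNB2, PLK1 and start 1 of CDC25C have a CHR 29 or 30 bases before the start, and further CHR letters stand at other distances. The E2F and forkhead letters stand in the CDK1 rows only.

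In shCDCA8 cells the transcripts of 9 of the 10 regulators were lower than in shCTRL cells and that of CDK1, the kinase that drives mitotic entry, did not pass the test. FOXM1, CDC20, PLK1 and CCNB2 stood at 26.4 to 31.4% of their mean RPM in shCTRL cells, CCNA2, CDC25C, CDC25B and CCNB1 at 40.0 to 46.7%, and AURKA at 74.6%. CDK1 stood at 106%. Values were tested as log2(RPM + 1) with limma over 11833 genes, with a call at a Benjamini-Hochberg adjusted p under 0.05, and fold changes on this scale understate the change of low genes. By that test 47.6% of all genes were called lower and 18.8% higher, so the median log2 fold change of the 10, -1.11, has to be read beside that of all tested genes, -0.27. A decline of at least 2-fold was called for 7 of the 10, against 14.6% of all genes. In bulk RNA, fewer cells in G2 and M phase and less RNA in each such cell cannot be told apart.

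The table as a whole was shifted. The reads by which RPM was divided numbered 52248230 and 55289855 in the shCDCA8 libraries and 53305010 and 46709612 in the shCTRL libraries, and the gene rows held 33.3 and 34.2% of them in shCDCA8 against 41.1 and 43.6% in shCTRL. Under median-ratio scaling, where a library's divisor is the median over genes of its ratio to their geometric mean, the median of all genes was 0.01 and that of the 10 was -0.83. Then 8 of the 10 were called lower (33.6% of all genes) and 1 higher (33.2%), with 4 at least 2-fold lower (8.48%). The hairpin's target, CDCA8, had 3.98 and 3.94 RPM in shCDCA8 libraries, against 14.2 and 16.5 RPM in shCTRL libraries (limma adjusted p = 7.86e-07). Of 10 luminal prostate markers, 6 fell and 2 rose (5 and 4 under median-ratio scaling): KLK3 had 364 and 438 RPM in shCDCA8 against 1454 and 1477 RPM in shCTRL libraries, and KRT8 had a log2 fold change of 0.74. The summed level of these 10 luminal markers was 1968 and 2064 RPM in shCDCA8 and 3786 and 3942 RPM in shCTRL libraries. Markers of leukocytes, fibroblasts, endothelium and basal epithelium summed to 7.83 and 9.33 RPM in shCDCA8 and 19.8 and 23.5 RPM in shCTRL libraries over the 11 of 16 measured. Of these, CD3E, CD14, COL1A2, DCN, LUM and PECAM1 were at most 0.19 RPM, and VWF, COL1A1 and PDGFRB fell. The part of these markers and of the shift in the results below was not tested.

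CDK1, the mitotic kinase, had 16.5 and 14.7 RPM in shCDCA8 libraries, against 16.3 and 13.0 RPM in shCTRL libraries. The groups overlapped, and the log2 fold change was 0.09 ± 0.139 (SE, n = 2 against 2, limma adjusted p = 0.583). Under median-ratio scaling it was 0.38 ± 0.149 and CDK1 was called higher (limma adjusted p = 0.0481). Without the second shCTRL library, the lower of that pair, the value as deposited was -0.067.

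All 3 cyclins that activate CDK1 fell. CCNB1, cyclin B1, had 16.6 and 18.1 RPM in shCDCA8 libraries, against 33.1 and 41.3 RPM in shCTRL libraries. CCNB2, cyclin B2, had 7.94 and 7.94 RPM in shCDCA8 libraries, against 23.6 and 27.0 RPM in shCTRL libraries. CCNA2, cyclin A2, which also pairs with CDK2 in S phase, had 4.27 and 4.49 RPM in shCDCA8 libraries, against 11.3 and 10.6 RPM in shCTRL libraries. For all 3 cyclins both shCDCA8 libraries lay below both shCTRL libraries. The log2 fold changes were -1.05 ± 0.130 for CCNB1 (limma adjusted p = 2.46e-05), -1.55 ± 0.126 for CCNB2 (1.02e-06) and -1.15 ± 0.131 for CCNA2 (1.35e-05), with SE. With a pseudocount of 5 RPM the value of CCNA2 was -0.76.

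Of the phosphatases that remove the inhibitory phosphates of CDK1, CDC25B, which acts at the centrosome early in entry, had 7.12 and 7.69 RPM in shCDCA8 libraries, against 15.0 and 18.2 RPM in shCTRL libraries. CDC25C had 2.01 and 1.52 RPM in shCDCA8 libraries, against 4.24 and 4.50 RPM in shCTRL libraries. Both fell without overlap of the groups, by 1.06 ± 0.137 and 0.96 ± 0.141 on the log2 scale (limma adjusted p = 3.22e-05 and 8.69e-05). CDC25C rested on the fewest reads of the 10, down to 84 in a library, where the highest count of any member was 3575. Its value depended on the pseudocount, at -1.27 with 0.1 RPM and -0.47 with 5 RPM, and was -0.61 after quantile normalization, with the call kept each time. CDC25A, the third family member, which also acts at the start of S phase, had 3.18 and 3.58 RPM in shCDCA8 libraries, against 6.30 and 5.97 RPM in shCTRL libraries. It fell as well, with a log2 fold change of -0.71 (limma adjusted p = 0.000631).

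Of the other mitotic kinases, PLK1, which phosphorylates CDC25 and WEE1 at entry, had 12.2 and 14.1 RPM in shCDCA8 libraries, against 39.0 and 47.5 RPM in shCTRL libraries. Its log2 fold change was -1.64 ± 0.131 (SE, limma adjusted p = 9.00e-07). AURKA, the Aurora A kinase that activates PLK1, had 6.89 and 6.29 RPM in shCDCA8 libraries, against 8.76 and 8.91 RPM in shCTRL libraries. The groups did not overlap and AURKA was called lower at -0.37 ± 0.131 (SE, limma adjusted p = 0.0242), close to the median of all tested genes, with 43.6% of genes lower still. Under median-ratio scaling its value was -0.10 and the call was lost (limma adjusted p = 0.516). AURKA also lost its call without the first shCDCA8 library (-0.43, adjusted p = 0.0513), the second shCDCA8 library (-0.32, 0.154) or the second shCTRL library (-0.36, 0.0618), by limma in each case.

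CDC20, the APC/C co-activator of anaphase, had 12.2 and 12.3 RPM in shCDCA8 libraries, against 41.8 and 48.8 RPM in shCTRL libraries. Its log2 fold change was -1.80 ± 0.120 (SE, limma adjusted p = 2.33e-07). FOXM1, the transcription factor, had 18.4 and 18.3 RPM in shCDCA8 libraries, against 62.6 and 76.5 RPM in shCTRL libraries. It held the lowest value of the 10, -1.86 ± 0.120 (SE, limma adjusted p = 1.88e-07). Only 2.05% of tested genes lay lower than FOXM1 and 2.34% lower than CDC20.

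**Figure D2:**
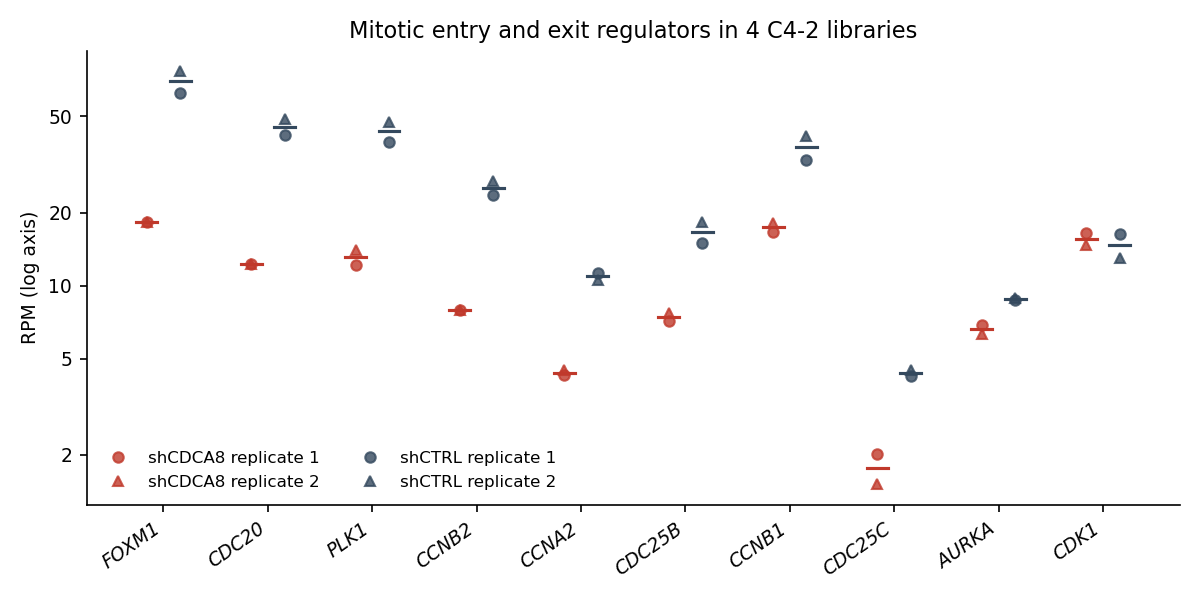
RPM of the 10 regulators in each of the 4 libraries, on a log axis, with shCDCA8 left of shCTRL for each gene. Points are libraries and bars are group means. Both shCDCA8 libraries lie below both shCTRL libraries for every gene but CDK1, whose 4 values lie between 13.0 and 16.5 RPM.

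For 9 of the 10 genes both shCDCA8 libraries lay below both shCTRL libraries, an order that 56.8% of all tested genes shared, and for none did both lie above, as they did for 26.5% of genes. For the same 9, the difference between groups was larger than the difference between replicates in either group. The share of all tested genes that met this was not counted, so it cannot be read as a trait of the members. In order of fold change, FOXM1, CDC20, PLK1 and CCNB2 lay within 1 combined SE of their neighbours. The step from CCNB2 to CCNA2 was 0.40 on the log2 scale, 2.21 combined SE. CCNA2, CDC25B, CCNB1 and CDC25C again lay within 1 combined SE of their neighbours, and the step from CDC25C to AURKA was 0.59, 3.06 combined SE. CDK1 stood 0.46 above AURKA, 2.43 combined SE. The combined SE treats genes of the same libraries as independent, and the order was set by the same values, so these steps are not tests. They also depend on the pseudocount: with 5 RPM the value of CDC25C was -0.47 and that of AURKA -0.26. The 8 genes other than AURKA and CDK1 were called lower under median-ratio scaling too, at -1.56 for FOXM1, -1.50 for CDC20, -1.35 for PLK1, -1.26 for CCNB2, -0.88 for CCNA2, -0.78 for CDC25B, -0.75 for CCNB1 and -0.73 for CDC25C. RPM is not scaled to transcript length, so levels were compared only within a gene.

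**Figure D3:**
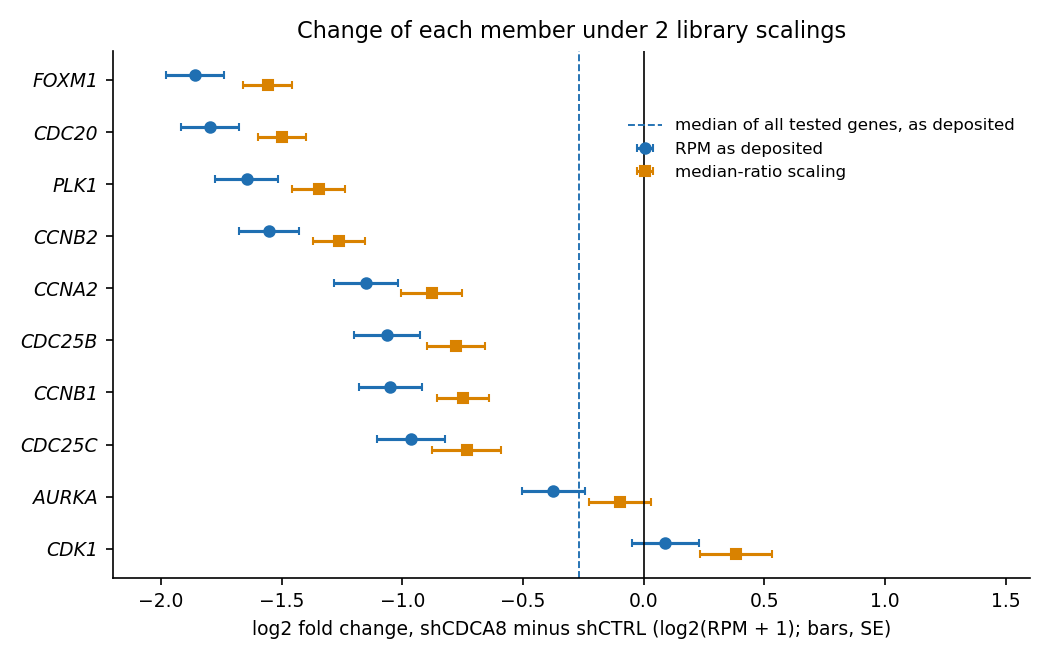
Log2 fold change of each regulator, shCDCA8 minus shCTRL on the log2(RPM + 1) scale, as deposited (circles) and under median-ratio scaling (squares), with SE. The dashed line is the median of all tested genes as deposited, -0.27. FOXM1 is lowest at -1.86 and CDK1 highest at 0.09 as deposited, and AURKA lies near the line.

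Ratios of 2 genes within a library do not move with the library total, and 7 pairs were compared. The CCNB1 to CDK1 ratio of RPM was 1.01 and 1.23 in shCDCA8 libraries, against 2.02 and 3.19 in shCTRL libraries. The CCNA2 to CDK1 ratio was 0.259 and 0.305 in shCDCA8 libraries, against 0.692 and 0.815 in shCTRL libraries. Both ratios were lower in each shCDCA8 library than in either shCTRL library, with log2 differences of -1.19 and -1.42. The CCNB1 to CCNB2 ratio was 2.09 and 2.28 in shCDCA8 libraries, against 1.40 and 1.53 in shCTRL libraries, a log2 difference of 0.58. The PLK1 to AURKA ratio was 1.77 and 2.24 in shCDCA8 libraries, against 4.45 and 5.34 in shCTRL libraries, a log2 difference of -1.29. In these pairs the groups did not overlap.

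FZR1, the co-activator that takes over from CDC20 late in mitosis, also fell. It had 19.5 and 24.1 RPM in shCDCA8 libraries, against 29.3 and 32.1 RPM in shCTRL libraries (log2 fold change -0.48, limma adjusted p = 0.00572), and was not called under median-ratio scaling (-0.18). The CDC20 to FZR1 ratio was 0.629 and 0.510 in shCDCA8 libraries, against 1.43 and 1.52 in shCTRL libraries. The FOXM1 to MYBL2 ratio was 0.579 and 0.519 in shCDCA8 libraries, against 0.809 and 0.876 in shCTRL libraries. The CDC25B to CDC25C ratio overlapped between the groups, at 3.54 and 5.06 in shCDCA8 and 3.54 and 4.06 in shCTRL libraries. With 2 libraries against 2 a two-sided exact permutation test cannot go below p = 0.333, the value it gave for the 6 ratios without overlap (0.389 adjusted over the 7), and it gave 1 for the CDC25 pair.

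**Figure D4:**
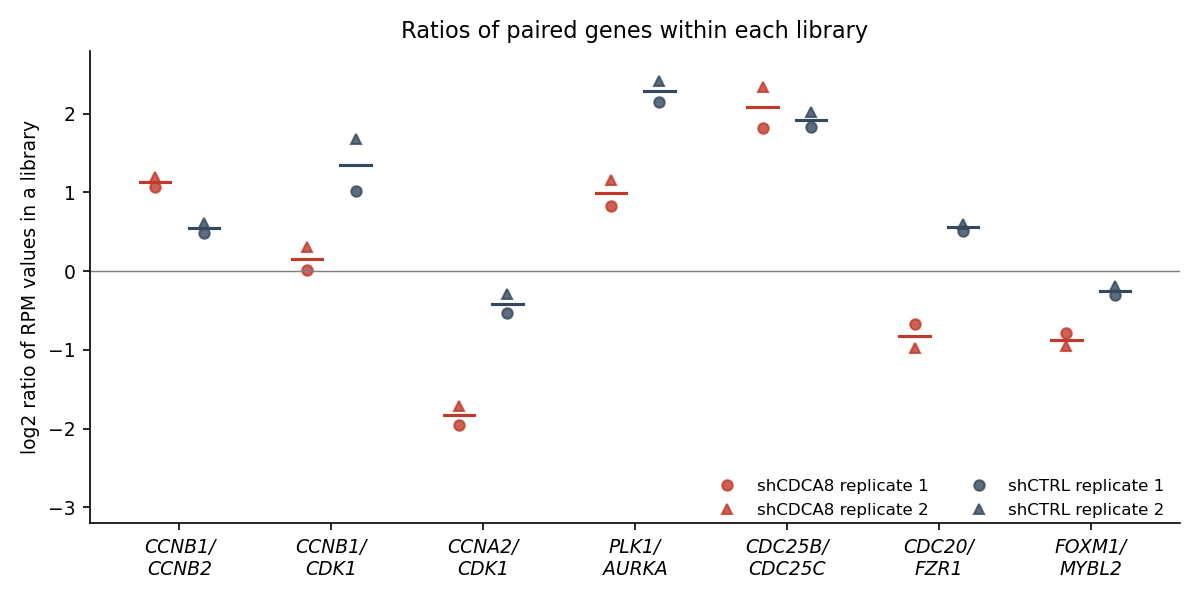
Log2 ratio of the RPM of 2 genes within each library for 7 pairs, with shCDCA8 left of shCTRL. Points are libraries and bars are group means. The groups are apart for 6 pairs and overlap for CDC25B/CDC25C.

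Among genes that act on CDK1, PKMYT1, a membrane-bound CDK1 inhibitory kinase, had 1.61 and 2.21 RPM in shCDCA8 libraries, against 6.75 and 8.46 RPM in shCTRL libraries, and WEE1 had 4.48 and 5.23 RPM in shCDCA8 libraries, against 9.14 and 9.81 RPM in shCTRL libraries. Both fell, at -1.57 and -0.84 on the log2 scale (limma adjusted p = 4.80e-06 and 0.000191), so transcripts of the kinases that restrain CDK1 and of the phosphatases that release it were lower together. Of 8 kept genes among CDK1 brakes and checkpoint kinases 5 fell, the checkpoint kinase CHEK2 (-0.92) among them, and 1 rose (median -0.58), or 2 without the first shCDCA8 library. The one that rose in the full data was the checkpoint kinase ATR, named after its values were seen, with 4.56 and 5.62 RPM in shCDCA8 libraries, against 2.33 and 1.37 RPM in shCTRL libraries (log2 fold change 1.11, limma adjusted p = 0.000137). Among 8 CDK1 partners and related regulators 4 fell, led by the CDK-binding subunit CKS1B (-1.01), and 2 rose, shares near the 47.6% lower and 18.8% higher of all tested genes. Their median of -0.21 turned to 0.09 under median-ratio scaling, with 2 lower and 3 higher. Without the first shCDCA8 library or the second shCTRL library 2 were lower and 1 higher, and without the second shCDCA8 library 3 were lower and 1 higher. The risen genes were CCNH (0.64) and CDK7 (0.36), subunits of the CDK-activating kinase, also named after their values were seen. Of 6 kept activators of PLK1 and Aurora A 3 fell and none rose (median -0.57), again a share near that of all genes. TPX2, which activates Aurora A on the spindle, had 9.67 and 8.81 RPM in shCDCA8 libraries, against 27.9 and 32.8 RPM in shCTRL libraries, a log2 fold change of -1.61. AJUBA, a LIM protein that binds Aurora A, stood at -1.40.

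Genes of mitotic exit followed no single direction. The 14 subunits of the APC/C had a median of -0.04, which turned to 0.26 under median-ratio scaling, with 5 lower and 3 higher, and ANAPC7 (-0.79) and ANAPC4 (0.85) lay at opposite ends. Under median-ratio scaling 3 subunits were lower and 7 higher, and 3 were lower and 2 higher without the first shCTRL library or without the second shCDCA8 library. Of 8 co-activator, ubiquitin-conjugating and inhibitor genes of the APC/C 7 fell and none rose (median -0.81). UBE2C, which starts the ubiquitin chains, had 7.14 and 7.74 RPM in shCDCA8 libraries, against 19.1 and 22.4 RPM in shCTRL libraries, and UBE2S, which extends them, stood at -0.82. Of 10 APC/C substrates outside the members 9 fell and none rose (median -0.99), among them securin, PTTG1 (-1.50), and thymidine kinase, TK1 (-1.27). In the Greatwall pathway and the phosphatases that reverse CDK1 phosphorylation, 3 of 13 genes fell and 5 rose (median 0.10). PPP2R1B, a scaffold subunit of protein phosphatase 2A, had 26.8 and 25.0 RPM in shCDCA8 libraries, against 11.4 and 11.6 RPM in shCTRL libraries (log2 fold change 1.10, limma adjusted p = 8.16e-06). ENSA, an inhibitor of that phosphatase, fell (-0.52). With median-ratio scaling 1 of these 13 was lower and 8 higher.

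Among transcription factors that control the members, MYBL2 had 31.8 and 35.3 RPM in shCDCA8 libraries, against 77.4 and 87.4 RPM in shCTRL libraries (log2 fold change -1.27, limma adjusted p = 1.62e-06). Of 13 DREAM and MuvB genes 8 fell and 1 rose (median -0.40), or 0 without the second shCDCA8 or the second shCTRL library, and RBL2, the p130 protein of the repressive complex, was among those that fell (-1.06). Of 20 kept published targets of FOXM1 and MuvB outside the members 17 fell and none rose (median -0.75), led by TPX2 and survivin, BIRC5 (-1.59). The falls were not confined to late cell cycle genes. Of 20 G1/S regulators 15 fell and none rose (median -0.80), with the helicase subunit MCM3 at -1.84 and CDK4 at -1.32. Of 39 kept S-phase marker genes 29 fell and 1 rose (median -0.56), with the uracil glycosylase UNG at -1.64 and the replication factor CDC45 at -1.49. Of 46 kept G2/M marker genes outside the members 30 fell and 3 rose (median -0.54), with the condensin subunit NCAPD2 at -1.75. The 4 that rose, named after their values were seen, were USP1 (0.93) in the S-phase list and SMC4 (1.02), CKAP5 (0.73) and G2E3 (0.56) in the G2/M list. These lists share genes with each other, and each count stands beside the 47.6% lower and 18.8% higher of all tested genes. Under median-ratio scaling the fallen and risen genes numbered 13 and 1 of the FOXM1 and MuvB targets, 13 and 2 of the G1/S regulators, 19 and 3 of the S-phase genes and 22 and 6 of the G2/M genes. They numbered 5 and 3 of the DREAM and MuvB genes, 4 and 3 of the CDK1 brakes, 3 and 1 of the PLK1 and Aurora A activators, 5 and 0 of the APC/C co-activator group and 8 and 0 of its substrates. No test compared one list with another.

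**Figure D5:**
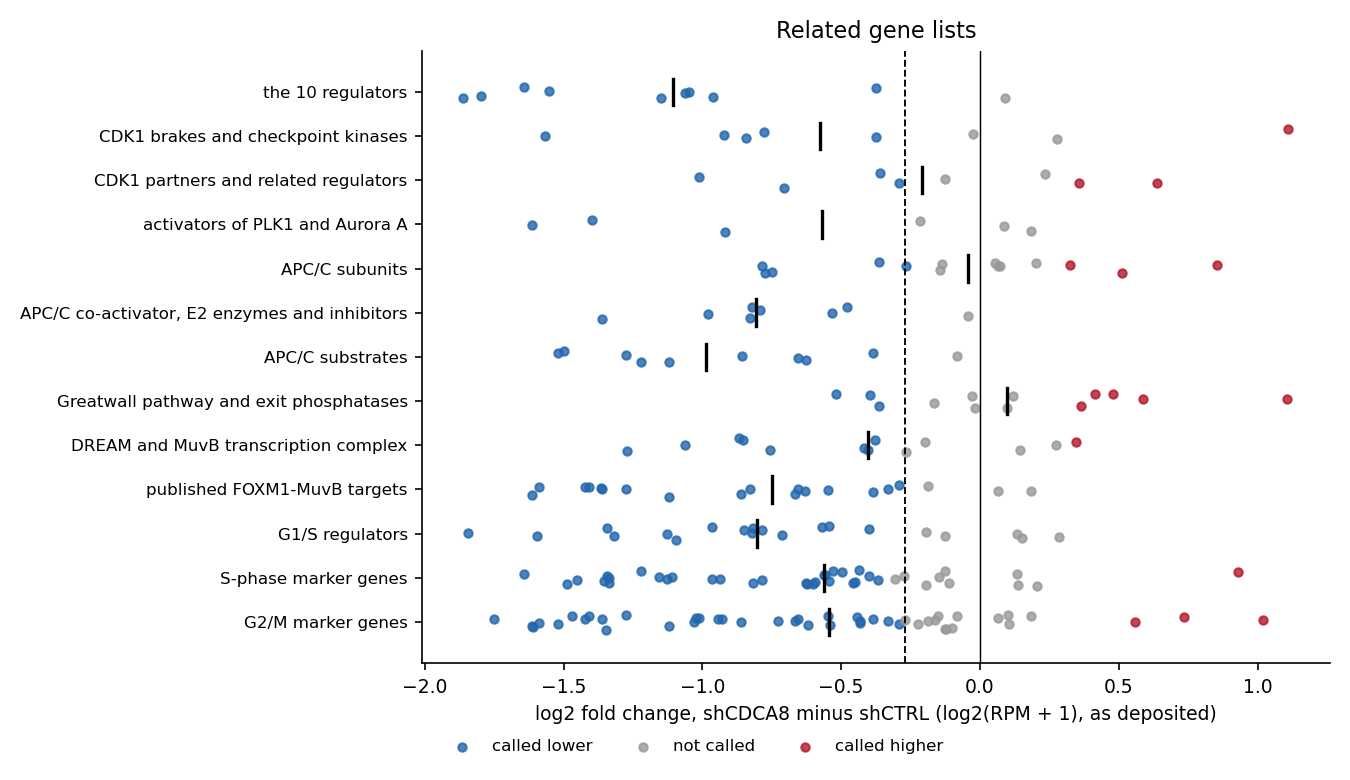
Log2 fold change, shCDCA8 minus shCTRL on the log2(RPM + 1) scale as deposited, of each kept gene in the 10 regulators and 12 related lists. Points are genes coloured by call, short bars are list medians and the dashed line is the median of all tested genes, -0.27. The medians run from -1.11 for the 10 regulators to 0.10 for the Greatwall pathway and exit phosphatases.

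Of 8494 other genes that averaged 5 RPM or more, the 5 whose centred log2(RPM + 1) profile over the 4 libraries lay closest to the mean profile of the members were TUBGCP4, SLC3A2, ZFP36L1, DIRAS1 and SEC14L1, at Euclidean distances of 0.0168 to 0.0359 and log2 fold changes of -1.16 to -1.13. Among the members themselves CDC25B was nearest to that mean, at 0.143, and CDK1 farthest, at 1.27. A profile over 4 libraries in 2 groups holds little beyond the fold change.

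Some members share sequence with other genes, and the labels do not state whether reads were counted by strand. EXOSC9, which overlaps CCNA2 in RefSeq, rose (0.67), opposite to CCNA2. FAM53C, which overlaps CDC25C, fell (-0.83), and of the genes that overlap FOXM1, RHNO1 fell (-1.17) and ITFG2 had 4.57 and 5.59 RPM in shCDCA8 libraries, against 4.20 and 5.74 RPM in shCTRL libraries. ERN2 overlaps PLK1, LOC124901203 overlaps CCNB1 and LOC100128966 overlaps CDC25C, but these were not found in the table by symbol. RefSeq also lists pseudogenes of CCNB2, AURKA and CDC20, sought only by names formed from the member's symbol. Reads of these 3 members may therefore have been split or dropped in a way that the values do not show.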

How the data were processed

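PolyA RNA of 2 shCDCA8 and 2 shCTRL libraries of C4-2 cells was analysed. The deposited values are RPM per gene, per the file headers, and the labels' protocols name library preparation and sequencing by BGI on the DNBseq platform. TopHat, HTSeq, edgeR, cutadapt and hg19 are named in the submitters' processing notes, without roles. How the RPM divisor was chosen is stated neither in the labels nor in the headers.

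All deposited RPM values above 0 were whole multiples of 1 read within 0.01 (100% of values), so reads were recovered and edgeR 4.0.16 (quasi-likelihood) and DESeq2 1.42.0 served as alternatives; over all genes edgeR called 3956 lower and 3851 higher. Main values were log2(RPM + 1), fitted with limma 3.58.1 in R 4.3.3 (eBayes with trend, two-sided, prior degrees of freedom 9.81 beside 2 residual), adjusted by Benjamini-Hochberg over 11833 genes. "Rose" and "fell" are used of calls. On simulated data the fit called 59 of 67 genes changed 1.5-fold and 8 of 11444 unchanged genes. Few genes changed there and no shift of the whole table was simulated, so its error on these data was not measured. P-values measure only the spread between these libraries, which may be technical. Replicate libraries were further apart than sampling noise (chi-square over its degrees of freedom, 10.0 in shCDCA8 and 8.08 in shCTRL), so each counted as 1.

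The members and lists were chosen with earlier results of these data known. Named genes are the members, CDCA8, CDC25A, FZR1, MYBL2 and WEE1, the 2 genes of smallest p per list, and the 5 nearest profiles. Others are said to be outside this rule or are cell type markers or genes that overlap a member. RefSeq coordinates were used for promoter letters (GRCh38.p14) and to find genes that overlap a member, whose values were then matched by symbol. They were never joined to hg19 positions, and protein sequences were not analysed here. Alternatives were other pseudocounts, filters, scalings and fits, a replicate block and leaving out each library.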

Additional observations from a re-analysis of the deposited data

How the results depend on the processing

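The calls of 8 members (CCNB1, CCNB2, CCNA2, PLK1, CDC20, CDC25B, CDC25C and FOXM1) held under every alternative on all 4 libraries that tested them. A filter of 5 RPM removed CDC25C. With 1 library at a time left out, the fold changes of these 8 stayed below 0. Such fits leave 1 library in a group, so a call kept in them is not a stricter test. Over all members 137 fold changes kept direction and side of the threshold, 8 lost a call, 3 gained one and 1 turned sign. The losses were all of AURKA: beside those given above, with scaling to the row sums (-0.09), quantile normalization (-0.12), edgeR (-0.12) and DESeq2 (-0.11). The gains were all of CDK1, so that 1 member was called higher under median-ratio scaling, scaling to the row sums and DESeq2, while edgeR (0.39) and quantile normalization (0.33) did not call it. CDK1 turned to -0.067 without shCTRL replicate 2, within a range of -0.067 to 0.25 when 1 library at a time was left out. Such omissions gave 8 to 9 members called lower and 0 higher. For these changes the cause was not tested. Of the ratios, CCNA2 to CDK1 alone moved by more than its spread (-1.24 with a pseudocount of 1), and CDC25B to CDC25C had no stable sign (-0.10 with that pseudocount).

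With the replicate number as a block, 9 members were called lower and 0 higher, against 9 and 0 without, and the whole table gave 6189 lower and 2712 higher, against 5628 and 2224. Same-numbered libraries deviated together (r = 0.31 over 11833 genes), but with 2 pairs the numbers do not establish a pairing.

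Of the list counts, 273 stayed within 1.5 times and 87 moved further. The fewest reads behind a member were 84, for CDC25C.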
